A study of Mus musculus with 12 samples.

Results

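Nucleic acid sensors are the proteins by which a cell detects RNA or DNA in a place or form that is not its own. Here they were followed as 10 genes fixed by name, Ddx58, Ifih1, Dhx58, Eif2ak2, Adar, Zbp1, Tlr3, Tlr7, Trex1 and Mavs, out of 21936 genes listed in the series. The genes were fixed by their function and no value entered the rule, but they were chosen with earlier results of these data known. Each name matched 1 gene identifier.

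RIG-I (encoded by Ddx58) and MDA5 (Ifih1) bind double-stranded RNA in the cytosol and signal through MAVS, an adaptor on the outer mitochondrial membrane, to switch on interferon genes. TLR3 and TLR7 recognise RNA inside endosomes, whereas ADAR and TREX1 act as brakes by editing or degrading nucleic acids of the cell itself. Most of these sensors are themselves interferon-induced, so the machinery amplifies itself once it is engaged.

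Polyadenylated RNA was sequenced from skeletal muscle of C57BL/6N mice aged 3 months, either PTRF knockout (labelled as having muscular dystrophy) or wild type (labelled as normal). PTRF is the caveolar coat protein cavin 1, encoded by Cavin1. The cell types in which the gene was deleted, and whether the numbered samples were separate animals, are not given in the sources used here, so a p-value here weighs the groups against a spread that may be technical. The labels list 3 knockout and 3 wild-type samples for each of soleus and quadriceps, but every soleus file held the same values as the quadriceps file of the same genotype and number, with a largest difference of 0 TPM. The comparison therefore rests on 6 libraries, 3 knockout and 3 wild type, and the muscle they came from cannot be told.

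Levels were read as TPM, which gives a gene's part of all transcripts in a library once transcript length has been divided out. They summed to 843194 to 872482 per library. The read depth from which they were made is unknown. Cavin1 averaged 0.133 ± 0.134 TPM in knockout libraries and 42.4 ± 2.63 TPM in wild-type libraries (SD, n = 3 each), in keeping with the labels. The genes of 12 skeletal muscle fibre markers summed to 44614 to 53478 TPM in knockout libraries and 40297 to 44426 TPM in wild-type libraries. The 11056 genes that reached 1 TPM in 3 or more libraries entered limma's test on log2(TPM + 1), with Benjamini-Hochberg adjustment over all of them, and a gene passed at an adjusted p under 0.05. By this test 39.2% of all genes passed, 36.3% being higher and 2.92% lower in the knockout, with a median log2 fold change of 0.33. That split depends on the scale: after trimmed-mean rescaling of the libraries 15.3% were higher and 12.4% lower, around a median of 0.01, after rescaling over nuclear genes alone 23.9% were higher and 6.89% lower, and of the genes passing after quantile normalization 48.6% were higher. Mitochondrial transcripts took 39.0, 45.7 and 42.2% of the TPM in knockout libraries 1, 2 and 3, and 52.3, 51.1 and 43.0% in wild-type libraries 1, 2 and 3, with wild-type library 3 inside the knockout range. The part of this share in the differences was not tested beyond that rescaling.

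For 7 of the 10 genes a promoter window was found in RefSeq on GRCm38.p6, running from 250 bases before to 50 bases after a transcript start. Dhx58, Zbp1 and Tlr7 had none. The windows were searched on both strands for the core of the interferon-stimulated response element, GAAA and GAAA with any 2 bases between, to which interferon regulatory factors bind. Ddx58, Ifih1 and Eif2ak2 held 1 match each, 3 of 10 windows, against 3.44% of all 32851 windows and 3.99% of all 27025 genes. These 3 windows are shown, 5′ to 3′ on the strand of the gene, because they carry that shared pattern, in capitals, in each case just after the start; the Mavs window is shown beside them because Mavs was the gene that moved the other way. A match of letters is a description and not a site shown to be bound.
Ddx58, chr4:40239776-40240075, minus strand: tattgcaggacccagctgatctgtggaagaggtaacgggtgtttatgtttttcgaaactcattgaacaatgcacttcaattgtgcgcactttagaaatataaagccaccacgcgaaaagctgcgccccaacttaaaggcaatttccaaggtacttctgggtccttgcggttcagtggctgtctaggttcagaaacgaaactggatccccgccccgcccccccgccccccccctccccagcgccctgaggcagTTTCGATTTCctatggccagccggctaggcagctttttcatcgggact
Ifih1, chr2:62646206-62646505, minus strand: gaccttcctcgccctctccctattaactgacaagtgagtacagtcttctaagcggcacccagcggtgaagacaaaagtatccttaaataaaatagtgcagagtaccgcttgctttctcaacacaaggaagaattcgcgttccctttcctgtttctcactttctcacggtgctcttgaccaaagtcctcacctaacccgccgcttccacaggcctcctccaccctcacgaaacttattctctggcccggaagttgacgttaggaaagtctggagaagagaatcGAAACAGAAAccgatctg
Eif2ak2, chr17:78882523-78882822, minus strand: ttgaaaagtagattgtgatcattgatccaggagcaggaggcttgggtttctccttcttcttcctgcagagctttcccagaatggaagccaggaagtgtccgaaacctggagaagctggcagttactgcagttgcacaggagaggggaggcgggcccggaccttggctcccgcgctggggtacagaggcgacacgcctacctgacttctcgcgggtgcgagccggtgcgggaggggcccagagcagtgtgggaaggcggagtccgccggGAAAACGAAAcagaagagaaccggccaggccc
Mavs, chr2:131233813-131234112, plus strand: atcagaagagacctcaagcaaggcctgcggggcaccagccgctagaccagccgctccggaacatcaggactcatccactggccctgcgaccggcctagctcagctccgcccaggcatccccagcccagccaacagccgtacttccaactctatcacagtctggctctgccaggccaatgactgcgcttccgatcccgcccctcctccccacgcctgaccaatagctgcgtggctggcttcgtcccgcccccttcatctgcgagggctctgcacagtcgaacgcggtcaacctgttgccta

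Counted from 1 at the start, the core lay at bases 3 to 12 in Ddx58 (on the opposite strand), 33 to 42 in Ifih1 and 19 to 28 in Eif2ak2. The gamma-activated site, TTC and GAA with any 3 bases between, which reads the same on both strands, was in 8.30% of all windows. Eif2ak2 held it at bases -178 to -170, and Adar held it at bases 23 to 31 of the third of its 3 windows. The bases just after the start of that Adar window were not found in a GENCODE transcript of the gene. In every other window of the members they were. These letters were not found in the windows of Mavs, Tlr3 and Trex1.

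Of the 10 genes, 9 reached the level needed for testing, and 8 of them rose and Mavs fell in the knockout, where 36.3% of all genes were higher and 2.92% lower. Tlr7 stayed under that level, and Dhx58 and Zbp1 reached it through the knockout libraries alone, being under 1 TPM in every wild-type library, so that a difference was built into their being tested. Ifih1 and Tlr3 reached 1 TPM in 1 wild-type library each and Adar in 2. These genes too needed knockout libraries to be tested, so the filter favoured a rise in them as well. With no filter on low values all 10 were tested, 9 were higher and Mavs was lower, against 19.8% and 1.58% of all genes. After trimmed-mean rescaling the 9 genes tested kept these directions, 8 higher and Mavs lower, against 15.3% and 12.4% of all genes. The pseudocount of 1 sets the size of the fold changes of such low genes: with 0.1 they ran from 0.93 (Trex1) to 5.16 (Zbp1) and with 5 from 0.37 (Tlr3) to 1.10 (Zbp1) for the 8 that rose, all of which still passed. For all 10 genes the knockout and wild-type values did not overlap. In 9 every knockout library was above every wild-type library, as held for 48.7% of all genes tested, which leave out Tlr7. In Mavs every knockout library was below, as held for 4.83%. An exact permutation test over the 6 libraries gave each of the 10 a two-sided p of 0.1, the smallest that 3 against 3 allows.

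**Figure D1:**
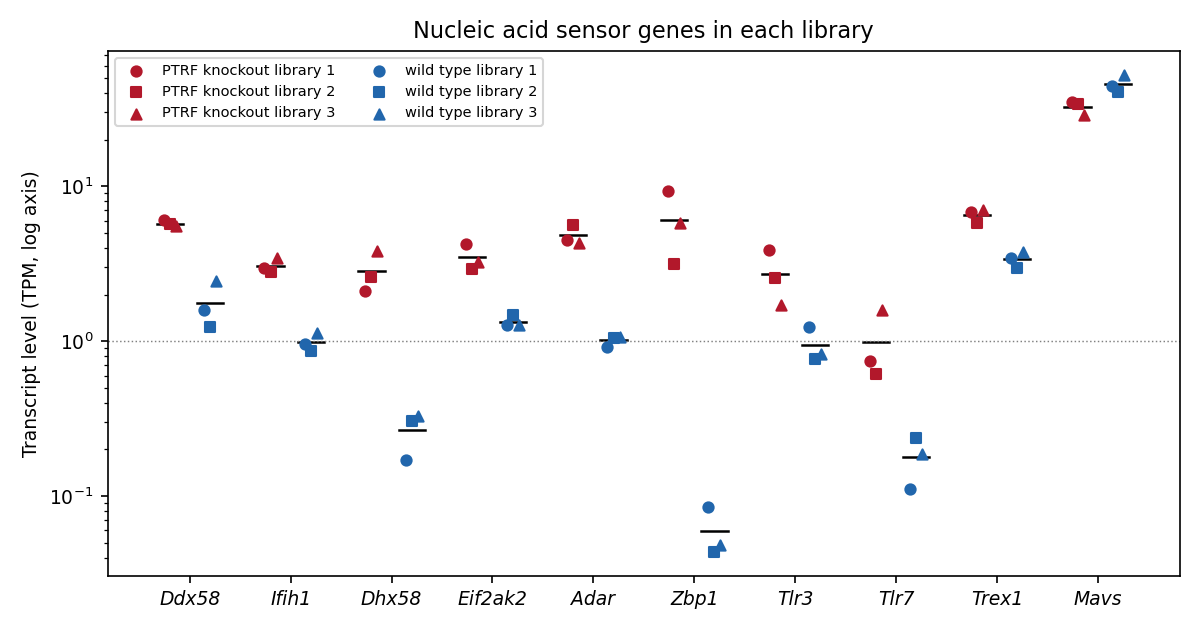
TPM of the 10 genes on a log axis, with 3 PTRF knockout libraries left of 3 wild-type libraries for each gene; bars are means and the dotted line marks 1 TPM. All knockout points lie above the wild-type points except for Mavs, which averaged 32.5 TPM in knockout and 46.1 TPM in wild-type libraries.

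The RIG-I-like receptors are a family of 3 RNA helicases. Ddx58 (ENSMUSG00000040296, minus strand of chromosome 4, 40203773 to 40239828, GRCm38) encodes RIG-I, which binds the phosphorylated ends of short double-stranded RNA. It stood at 6.02, 5.73 and 5.51 TPM in knockout libraries 1, 2 and 3, and at 1.59, 1.24 and 2.43 TPM in the wild-type libraries in the same order. The knockout libraries were close to each other and all above the wild-type ones, which were more spread. On the log2 scale it rose by 1.32 (SE 0.17, limma adjusted p = 0.000143), which is 0.99 above the median gene.

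Ifih1 (ENSMUSG00000026896, minus strand of chromosome 2, 62595798 to 62646255), whose product MDA5 assembles along long double-stranded RNA, stood at 2.98, 2.79 and 3.44 TPM in the knockout libraries and at 0.960, 0.861 and 1.12 TPM in the wild-type libraries. The rise was 1.04 on the log2 scale (SE 0.13, limma adjusted p = 0.000159). The 2 receptors were thus about 3 times as high in the knockout, by 3.28 times for Ddx58 and 3.13 times for Ifih1 in mean TPM.

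Dhx58 (ENSMUSG00000017830, minus strand of chromosome 11, 100694884 to 100704271) encodes LGP2, a relative without the signalling domains, known to assist MDA5. Its values were 2.12, 2.59 and 3.84 TPM in the knockout libraries and 0.172, 0.306 and 0.327 TPM in the wild-type libraries. The gap between the groups was wide beside the spread within either. The log2 fold change was 1.58 (SE 0.17, limma adjusted p = 4.16e-05), 2.99 with a pseudocount of 0.1 and 0.57 with 5, and the ratio of mean TPM was 10.6. The annotated antisense gene Dhx58os overlaps it, and the sources used here do not state whether reads were assigned by strand.

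Mavs (ENSMUSG00000037523, plus strand of chromosome 2, 131234063 to 131248025), the adaptor on which both signalling receptors converge, went the opposite way. It stood at 34.9, 33.8 and 28.8 TPM in the knockout libraries and at 44.6, 40.9 and 52.7 TPM in the wild-type libraries. Every knockout library was below every wild-type library. The log2 fold change was -0.49 (95% interval -0.82 to -0.15, limma adjusted p = 0.0264). Its fold change was lower than that of nearly all other genes, at percentile 2.7 of those tested, and it was further down after trimmed-mean rescaling (-0.85, limma adjusted p = 0.00084). The call was lost without knockout library 3 (adjusted p = 0.121), without wild-type library 1 (adjusted p = 0.0669) and without wild-type library 3 (adjusted p = 0.0646), with the direction kept; over all alternatives limma's adjusted p ran from 0.00084 to 0.121.

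Eif2ak2 (ENSMUSG00000024079, minus strand of chromosome 17, 78852564 to 78882573) encodes PKR, a kinase that is activated by double-stranded RNA and stops translation by phosphorylating eIF2 alpha. It stood at 4.26, 2.91 and 3.27 TPM in the knockout libraries and at 1.28, 1.47 and 1.27 TPM in the wild-type libraries. The wild-type libraries were nearly level, and the lowest knockout value was clear of them. The log2 fold change was 0.93 (SE 0.15, limma adjusted p = 0.000619). The annotated genes Gm26637 and n-R5s29 overlap Eif2ak2 on the other strand.

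Adar (ENSMUSG00000027951, plus strand of chromosome 3, 89715022 to 89753446) encodes ADAR1, which converts adenosine to inosine in double-stranded RNA and thereby keeps the cell's own transcripts from activating MDA5 and PKR. It stood at 4.53, 5.63 and 4.31 TPM in the knockout libraries and at 0.923, 1.05 and 1.07 TPM in the wild-type libraries. The groups were far apart, with a ratio of mean TPM of 4.75 and a log2 rise of 1.52 (SE 0.14, limma adjusted p = 1.58e-05). The values are per gene, so the interferon-induced long form of ADAR1 and the constitutive short form cannot be separated. Chrnb2, on the other strand across part of Adar, was at or under 0.224 TPM in every library.

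Zbp1 (ENSMUSG00000027514, minus strand of chromosome 2, 173206612 to 173218923) encodes a sensor of left-handed double-stranded RNA and DNA that can start necroptosis through RIPK3. It stood at 9.32, 3.15 and 5.82 TPM in the knockout libraries and at 0.0854, 0.0436 and 0.0481 TPM in the wild-type libraries. It was near 0 in each wild-type library and the most variable of the 9 tested members among the knockout libraries, with library 1 highest. The log2 rise of 2.65 (SE 0.26, limma adjusted p = 2.24e-05) exceeded that of 99.8% of genes tested, and it was 5.16 with a pseudocount of 0.1 in place of 1. In mean TPM the ratio was 103, a figure that leans on wild-type values too low to be measured well at an unknown depth.

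Tlr3 (ENSMUSG00000031639, minus strand of chromosome 8, 45395665 to 45411080), the endosomal receptor for double-stranded RNA, stood at 3.86, 2.55 and 1.72 TPM in the knockout libraries and at 1.24, 0.771 and 0.825 TPM in the wild-type libraries. The annotated antisense gene Gm45542 overlaps Tlr3. For Tlr3 the lowest knockout library was not far above the highest wild-type library. The log2 fold change was 0.90 (SE 0.20, limma adjusted p = 0.00468), and the gene no longer passed after quantile normalization (limma adjusted p = 0.105; range over the alternatives 0.000528 to 0.105).

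Tlr7 (ENSMUSG00000044583, minus strand of chromosome X, 167304929 to 167330558), the endosomal receptor for single-stranded RNA, is known chiefly from plasmacytoid dendritic cells, B cells and macrophages. It stood at 0.744, 0.612 and 1.60 TPM in the knockout libraries and at 0.112, 0.237 and 0.188 TPM in the wild-type libraries. Knockout library 3 was well above the rest and was alone in exceeding 1 TPM, so the gene did not enter the main test. With no filter its log2 fold change was 0.72 (SE 0.18, limma adjusted p = 0.0338).

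Trex1 (ENSMUSG00000049734, minus strand of chromosome 9, 109057933 to 109059734) encodes the main cytosolic DNA exonuclease, which removes DNA before cGAS can detect it. It stood at 6.83, 5.79 and 6.99 TPM in the knockout libraries and at 3.42, 2.98 and 3.75 TPM in the wild-type libraries. Both groups were tight, and the gene rose by 0.78 on the log2 scale (SE 0.14, limma adjusted p = 0.00158), the smallest of the tested increases among the 10. Atrip lies across Trex1 on the same strand, so reads of the 2 genes may have been divided in a way the sources used here do not state. Atrip had 5.81, 3.60 and 5.77 TPM in the knockout libraries and 4.62, 3.85 and 4.52 TPM in the wild-type libraries, ranges that overlap.

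**Figure D2:**
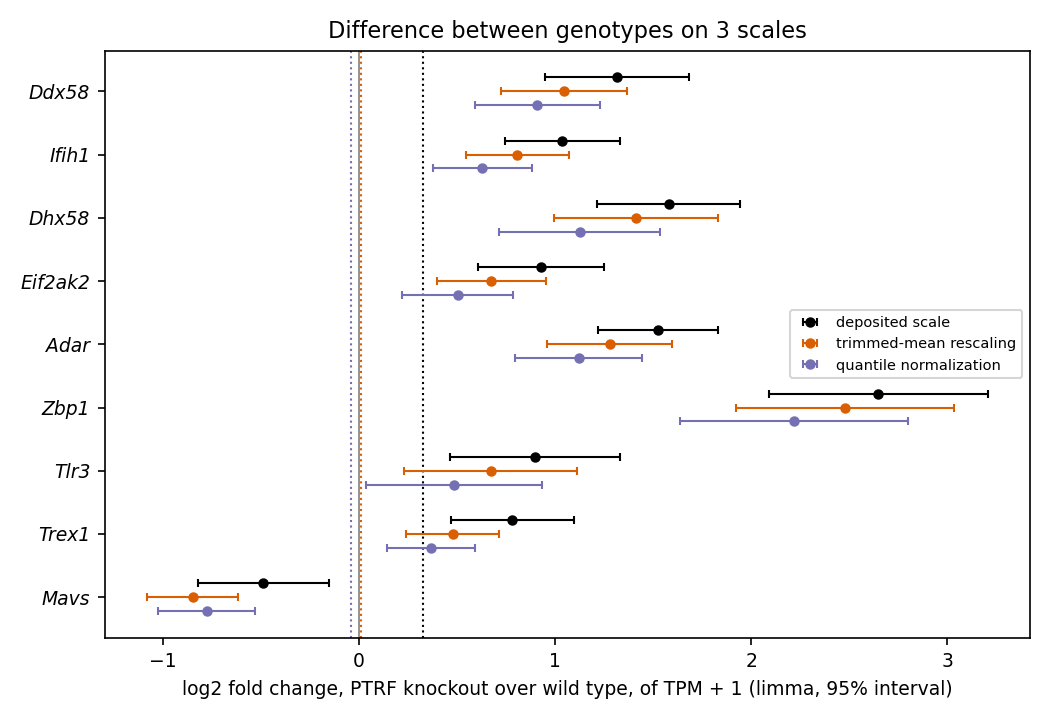
log2 fold change of TPM + 1, PTRF knockout over wild type, with limma's 95% interval, for the 9 genes tested, on the deposited (black), trimmed-mean (orange) and quantile (purple) scales; dotted lines are the medians of all genes on each scale. Zbp1 is the farthest to the right (2.65 on the deposited scale) and Mavs is the gene left of 0 on all 3 scales.

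The order of the levels differed between the genotypes. In the knockout Mavs was the highest (32.5 ± 3.26 TPM), followed by Trex1 (6.54 ± 0.651 TPM), Zbp1 (6.10 ± 3.09 TPM), Ddx58 (5.75 ± 0.256 TPM) and Adar (4.83 ± 0.706 TPM; SD, n = 3 each). Neighbours from Trex1 to Adar had overlapping ranges. Below them came Eif2ak2, Ifih1, Dhx58 and Tlr3, each neighbour again overlapping the next, and Tlr7 was the lowest (0.985 ± 0.536 TPM), with no overlap with Tlr3. In wild type Mavs was also the highest (46.1 ± 5.98 TPM), Trex1 came next (3.38 ± 0.384 TPM) and Ddx58 after it (1.75 ± 0.612 TPM), none of them overlapping. Eif2ak2 overlapped Ddx58, and Adar, Ifih1 and Tlr3 overlapped each other around 1 TPM. Dhx58 and Tlr7 lay below, overlapping each other, and Zbp1 was the lowest (0.0591 ± 0.0229 TPM), clear of Tlr7.

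Summed over the 9 genes other than Mavs, the level was 40.7, 31.8 and 36.5 TPM in knockout libraries 1, 2 and 3, and 9.78, 8.96 and 11.03 TPM in wild-type libraries 1, 2 and 3. Mavs made up 47.3 ± 3.84% of the sum over all 10 genes in the knockout and 82.3 ± 0.371% in wild type. These sums describe the members and were not tested.

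A ratio of 2 genes within a library does not depend on the scale of that library, so the balance between members was also described by such ratios. Ddx58 per Mavs was 0.178 ± 0.0119 in the knockout and 0.0374 ± 0.00809 in wild type, and Ifih1 per Mavs was 0.0957 ± 0.0205 in the knockout and 0.0213 ± 0.000251 in wild type (SD, n = 3 each). Over the 9 other genes the mean ratio to Mavs ran from 2.76 times higher in the knockout for Trex1 to 144 times for Zbp1, the last resting on the very low wild-type values of Zbp1. Since every level was higher in the knockout and Mavs lower, with no overlap, the ratios were bound to be separate, and they were not tested.

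**Figure D3:**
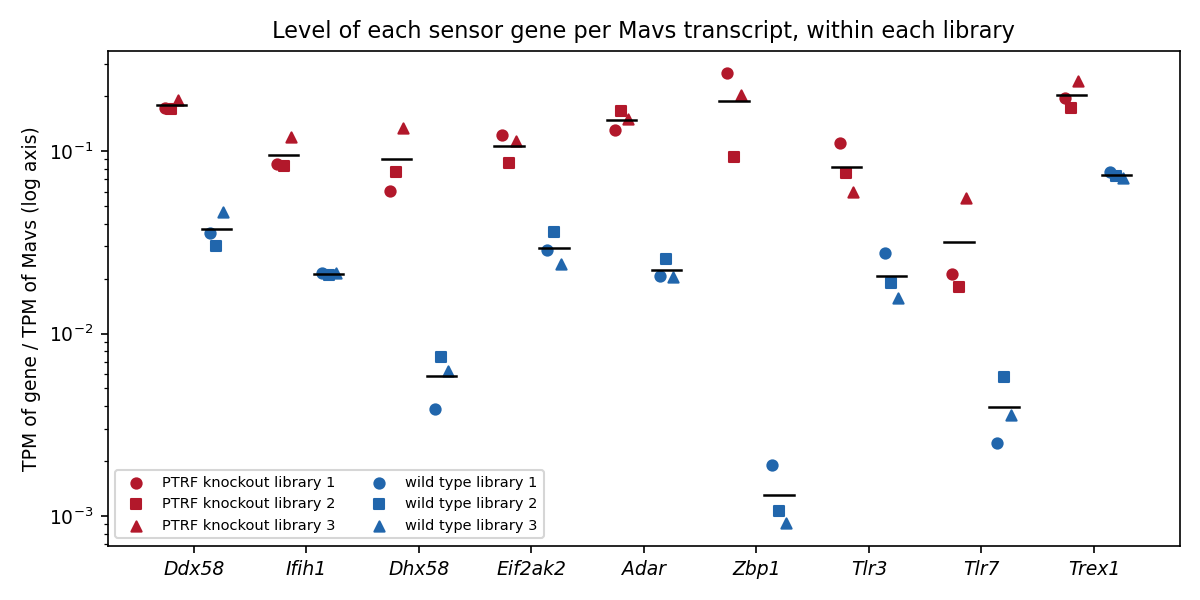
TPM of each of 9 genes divided by the TPM of Mavs in the same library, on a log axis, with 3 PTRF knockout libraries left of 3 wild-type libraries; bars are means. The knockout points lie above the wild-type points for every gene, with the widest gap for Zbp1 and the narrowest for Trex1 (2.76 times).

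The remaining 4 ratios compared genes that all rose. Ddx58 per Ifih1 was 1.89 ± 0.250 in the knockout and 1.75 ± 0.372 in wild type, overlapping ranges (exact permutation test, two-sided p = 0.7). Dhx58 per Ifih1 was 0.919 ± 0.204 in the knockout and 0.275 ± 0.0894 in wild type, and Dhx58 per Ddx58 was 0.500 ± 0.178 in the knockout and 0.163 ± 0.0737 in wild type. In both, every knockout library was above every wild-type library, as it was for Adar per Ifih1, at 1.60 ± 0.386 in the knockout and 1.05 ± 0.155 in wild type (two-sided exact permutation p = 0.1 for each, the smallest possible, and 0.133 after adjustment over the 4 ratios, so none passed).

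The libraries did not rank the same way for every gene. Knockout library 1 was the highest of its group for 5 of the 10 genes, library 3 for 4 and library 2 for 1. Knockout library 2 was the lowest for 5 genes. Among wild-type libraries, library 3 was the highest for 6 genes and library 2 the lowest for 6.

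The genes around the sensors were followed in 7 lists, read against the 36.3% of all genes that were higher and the 2.92% that were lower. Counts after trimmed-mean rescaling are to be read against 15.3% higher and 12.4% lower. Of all genes, 2379 of 10569 were higher without knockout library 1, 4112 of 10592 without knockout library 2 and 2504 of 10571 without knockout library 3. In the list of RIG-I-like receptor signalling and its regulators, which includes Mavs, 13 of 25 tested genes were higher and only Mavs was lower (7 higher and 3 lower of 23 after trimmed-mean rescaling). Irf7, the transcription factor that amplifies interferon production, averaged 16.2 ± 3.68 TPM in the knockout and 1.28 ± 0.298 TPM in wild type (log2 fold change 2.90, limma adjusted p = 2.08e-06). Nlrc5, an activator of class I antigen presentation genes, averaged 5.89 ± 2.54 TPM in the knockout and 0.743 ± 0.191 TPM in wild type. Ddx60, a helicase linked to RIG-I, averaged 1.29 ± 0.224 TPM in the knockout and 0.218 ± 0.119 TPM in wild type, and lost its call after quantile normalization (limma adjusted p = 0.0614; range over the alternatives 0.000181 to 0.0614). Without knockout library 1 the list had 7 higher genes and without knockout library 3 it had 8, out of 22 tested in each case.

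In the list of cytosolic DNA sensing, 8 of 13 tested genes were higher and none lower (5 of 12 after trimmed-mean rescaling). Ifi204, a DNA-binding protein of the AIM2-like family, averaged 9.96 ± 0.772 TPM in the knockout and 1.37 ± 0.449 TPM in wild type (log2 fold change 2.23, limma adjusted p = 4.64e-06), and its relative Ifi203 averaged 14.2 ± 1.41 TPM in the knockout and 4.71 ± 1.15 TPM in wild type. These genes belong to a cluster of similar copies, and reads may have been divided between them. Sting1, the adaptor of cytosolic DNA sensing, averaged 4.08 ± 1.26 TPM in the knockout and 1.46 ± 0.449 TPM in wild type (log2 fold change 1.03, limma adjusted p = 0.00258), unlike the RNA-sensing adaptor Mavs, which was lower. The Sting1 call was lost after quantile normalization (limma adjusted p = 0.0642; range over the alternatives 0.000307 to 0.0642). Without knockout library 1, and likewise without knockout library 3, 5 of 11 genes of this list were higher.

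Among nucleases and other brakes on self nucleic acid, 8 of 14 tested genes were higher and none lower. After trimmed-mean rescaling 3 were higher and 3 lower. Pld4, an endosomal exonuclease, averaged 4.86 ± 0.333 TPM in the knockout and 0.684 ± 0.147 TPM in wild type, Isg20, an interferon-induced exonuclease, 3.14 ± 0.895 TPM in the knockout and 1.02 ± 0.193 TPM in wild type, and Samhd1, which depletes deoxynucleotides, 16.9 ± 5.38 TPM in the knockout and 6.78 ± 0.735 TPM in wild type. The count was 3 of 13 without knockout library 1 and 4 of 13 without knockout library 3. It was 4 of 14 without wild-type library 1, where 2698 of all 10996 genes were higher. It was also 4 of 14 without wild-type library 2, where 2535 of all 11005 genes were higher.

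In the endosomal list 11 of 15 tested genes were higher and none lower (6 after trimmed-mean rescaling). Unc93b1, the chaperone that carries TLR3 and TLR7 to endosomes, averaged 7.69 ± 0.815 TPM in the knockout and 1.96 ± 0.221 TPM in wild type (log2 fold change 1.55, limma adjusted p = 1.49e-05). Of the lysosomal proteases in this list, Ctss stood at 18.0 ± 0.481 TPM in the knockout and 2.42 ± 0.325 TPM in wild type, and Lgmn stood at 40.7 ± 4.16 TPM in the knockout and 20.9 ± 3.08 TPM in wild type; both rose.

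Of 9 partners of ZBP1 in necroptosis and pyroptosis, 7 were higher and none lower (4 after trimmed-mean rescaling). Casp8, a protease that holds necroptosis back, averaged 6.09 ± 0.954 TPM in the knockout and 1.78 ± 0.298 TPM in wild type, Gsdmd, the pore-forming protein of pyroptosis, 12.8 ± 2.69 TPM in the knockout and 3.39 ± 1.15 TPM in wild type, and Casp1, which cleaves it, 2.60 ± 0.381 TPM in the knockout and 0.720 ± 0.247 TPM in wild type. Without knockout library 1, and likewise without knockout library 3, 4 of 8 were higher. In the list of other eIF2 alpha kinases and their pathway, 1 of 9 was higher, Eif2ak3, the kinase PERK of the endoplasmic reticulum, at 2.21 ± 0.271 TPM in the knockout and 1.28 ± 0.0326 TPM in wild type (log2 fold change 0.49, limma adjusted p = 0.0125). It did not pass after quantile normalization (adjusted p = 0.66), after trimmed-mean rescaling (adjusted p = 0.163), after rescaling over nuclear genes (adjusted p = 0.0505) or without knockout library 3 (adjusted p = 0.0686), and its adjusted p over the alternatives ran from 0.0129 to 0.66.

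Interferon ligands and receptors formed the last list. Ifnb1, Ifna2, Ifna4, Ifnl2 and Ifnl3, which encode interferons themselves, were listed at 0 or not listed in all 6 libraries, and Ifng in the 3 wild-type libraries. All 11 genes of the list that could be tested, which are receptors, kinases, STAT and IRF factors and a feedback inhibitor, were higher, as were 9 of 11 after trimmed-mean rescaling. Stat2 averaged 12.3 ± 4.09 TPM in the knockout and 2.12 ± 0.262 TPM in wild type, and Irf9, an interferon regulatory factor that acts on the response element, 10.4 ± 1.82 TPM in the knockout and 2.14 ± 0.212 TPM in wild type. Usp18, an interferon-induced inhibitor of the receptor, averaged 4.19 ± 0.345 TPM in the knockout and 0.656 ± 0.344 TPM in wild type.

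**Figure D4:**
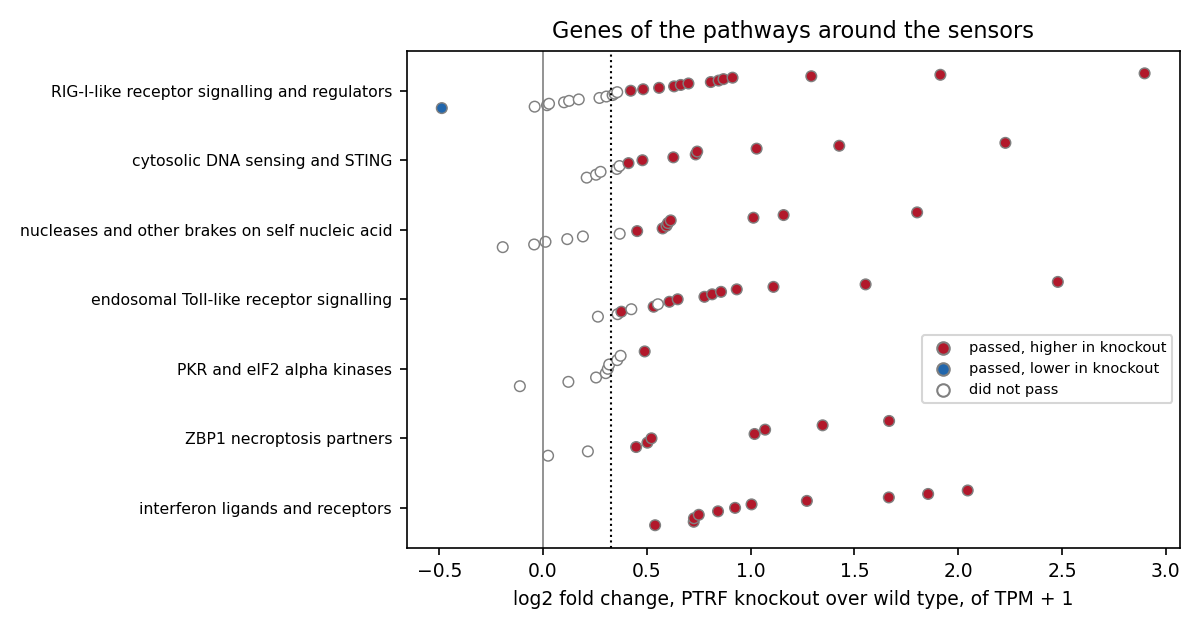
log2 fold change of TPM + 1, PTRF knockout over wild type, of each tested gene in 7 lists around the sensors; red points passed as higher, blue as lower and open points did not pass, and the dotted line is the median of all genes (0.33). All 11 tested interferon receptor and signalling genes are red, against 1 of 9 eIF2 alpha kinase pathway genes.

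Of the 96 genes tested in these lists, 9 stayed below 1 TPM throughout wild type and were tested through the knockout libraries alone. Nlrc5, Ddx60, Pld4 and Casp1, named above, were among them, so that a difference was built into their being tested. Irf7, Ifi204, Isg20 and Usp18 were below 1 TPM in some wild-type libraries, so they too needed knockout libraries to be tested. After quantile normalization, which left 12.4% of all genes higher and 13.1% lower, the RIG-I-like receptor list had 5 higher and 3 lower of 25 genes, nucleases had 3 higher and 2 lower of 14, and ZBP1 partners had 4 higher and 1 lower of 9. On that scale none was lower in the other lists, where 2 of 13 DNA sensing genes, 5 of 15 endosomal genes, none of 9 eIF2 alpha kinase genes and 7 of 11 interferon receptor and signalling genes were higher.

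Cell type markers were read against the same shares of all genes, 36.3% higher and 2.92% lower, or 15.3% and 12.4% after trimmed-mean rescaling. Of 12 skeletal muscle fibre markers 3 were higher and none lower (2 higher after trimmed-mean rescaling). Of 49 markers tested, 7 stayed below 1 TPM throughout wild type and so were tested only because they were high in the knockout: 3 of the macrophage list and 1 each of the dendritic, plasmacytoid dendritic, neutrophil and satellite cell lists. In bulk muscle a change in the number of cells of a type and a change of RNA per cell cannot be told apart. Of 12 macrophage and monocyte markers 10 were tested and all 10 were higher (7 of 7 without any 1 knockout library), and the 12 summed to 168 to 218 TPM in knockout libraries and 35.4 to 42.1 TPM in wild-type libraries. The 8 markers of fibro-adipogenic progenitors were all higher, summing to 1149 to 1228 TPM in the knockout and 414 to 441 TPM in wild type. Of 8 endothelial markers 6 were higher and 1 lower (5 and 2 after trimmed-mean rescaling), summing to 189 to 210 TPM in the knockout and 99.8 to 112 TPM in wild type. The neutrophil markers summed to 3.88 to 40.7 TPM in the knockout, with a mean of 17.6 TPM, and to 0.601 to 2.52 TPM in wild type. The knockout libraries thus differed widely. Of these markers 2 of 2 tested were higher, but 0 of 2 after quantile normalization and 0 of 6 with no filter.

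The 5 plasmacytoid dendritic cell markers summed to 46.1 to 67.7 TPM in the knockout and 15.3 to 18.2 TPM in wild type, with 3 of 3 tested markers higher (2 of 3 after trimmed-mean rescaling), and the 7 dendritic cell markers to 5.94 to 6.67 TPM in the knockout and 2.59 to 3.15 TPM in wild type, with 1 of 2 higher and none of 1 without any single knockout library. None of the lymphocyte markers reached the level needed for testing: those of T and NK cells summed to 0.643 to 1.58 TPM in the knockout and 0.540 to 0.911 TPM in wild type, and those of B cells to 0.391 to 1.15 TPM in the knockout and 0.232 to 0.437 TPM in wild type. Satellite cell markers summed to 21.03 to 31.97 TPM in the knockout and 6.91 to 8.55 TPM in wild type. Of these 3 of 4 tested were higher, but 2 of 4 after trimmed-mean rescaling, and 1 of 3 without knockout library 1 or without knockout library 3. With no filter 2 of 6 satellite cell markers were higher and 1 was lower, against 19.8% and 1.58% of all genes. No marker in these lists was at 0 in every library. The part of these cell types in the levels of the sensor genes was not tested.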

How the data were processed

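The deposited files give 1 value per gene and sample. The authors' values were taken as TPM from the values alone, since no label or header names the unit. They are fractional and sum to 843194 to 872482 per library, which does not settle the unit. Per the labels' protocols, RNA was extracted with TRIzol and a NEBNext Ultra kit made the libraries. The submitters' processing notes name STAR 2.5.3a, kallisto 0.43.0, GRCm38 and mm10 but not the role of each. Genes absent from a file were set to 0. Positions come from GENCODE M21.

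Soleus samples were used, as the quadriceps files repeat them. The test was that of limma 3.58.1 (R 4.3.3), moderated along mean intensity, on log2(TPM + 1) of 11056 genes, with 4 residual degrees of freedom. Fold changes on this scale understate those of low genes. Python 3.11.15 with pandas 2.3.3 and matplotlib 3.10.9 made the tables and plots. TPM keeps no depth, so no counting interval is given.

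The 10 members, the lists and the alternatives were chosen with earlier results of these data known. Named were all members and, from each list, the 3 passing genes with the smallest adjusted p. Ddit3 matched 2 identifiers and was left out of its list, and Mnda and Trac matched none. The alternatives were other scales (quantile normalization, rescaling by a trimmed mean with 30% of ratios and 5% of levels trimmed, rescaling over nuclear genes), limma with no trend, pseudocounts of 0.1 and 5, filters at 10 TPM or none, a block for replicate number, a required log2 change of 1 in size, and libraries left out.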

Additional observations from a re-analysis of the deposited data

How the results depend on the processing

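The number of genes passing was 4339. It was 2823 after quantile normalization, 1839 with the 10 TPM filter, 912 when a log2 change of 1 in size was required, 1886 with knockout library 1 and wild-type library 2 both left out, and 2648 to 4458 with 1 library left out at a time. The number of the 10 sensor genes passing was 9. It was 1 with the 10 TPM filter, which Mavs alone met, 5 when a log2 change of 1 in size was required, and 6 to 9 with 1 library left out; without a knockout library Dhx58 and Zbp1 no longer met the filter. No fold change of a sensor gene changed sign. Of 138 values under alternatives 129 kept their side of the threshold. Calls were lost by that size limit for Eif2ak2, Tlr3, Trex1 and Mavs, after quantile normalization for Tlr3 and with a library left out for Mavs, and Tlr7 passed with no filter. With the replicate number as a block 4373 genes passed and 9 sensor genes. The labels do not say that a number pairs samples, and the deviations of same-numbered libraries correlated at 0.03, -0.01 and 0.04 across genes, with no knockout library closest to its own number. The unknown depth limits what can be said of genes under 1 TPM.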
